A study of Mus musculus with 6 samples.

Results

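The proteasome genes of cold-acclimated inguinal white adipose tissue (iWAT) were taken by name. They are all genes of the table whose symbol begins with Psma, Psmb, Psmc or Psmd followed by a number, a rule that uses no measured value. The rule found 39 of 16538 genes. Of these, 7 form the constitutive alpha rings, 4 are structural and 3 catalytic constitutive members of the beta rings, and 3 (Psmb8, Psmb9 and Psmb10) are the immunoproteasome forms of the catalytic subunits. Another 6 are the ATPases of the regulatory particle, 11 are its other subunits, and 3 (Psmd5, Psmd9 and Psmd10) are assembly chaperones that carry the Psmd name. The remaining members are Psma8, a testis form of an alpha subunit, and Psmc3ip, which encodes a protein of meiotic recombination and shares only the letters of its symbol. The 31 constitutive subunits are the 14 of the core particle and the 17 of the regulatory particle.

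RNA-Seq was performed on iWAT, a subcutaneous fat depot, of mice kept at 8°C for 10 days per the labels. The 3 control samples carry the genotype wt in their labels and come from fl/fl littermates, and the 3 AKO samples come from mice in which Adiponectin-Cre, active in adipocytes, deletes Nrg4, the gene of the secreted factor neuregulin 4. Other cell types of the depot keep an intact gene. Each sample held RNA pooled from 2 mice, so the p-values measure the spread between pools. Both groups were kept in the cold and no warm samples were analysed here, so the comparison is between genotypes and the response to cold itself was not measured.

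The proteasome degrades proteins that carry chains of ubiquitin. Its core particle is a barrel of stacked alpha and beta rings with the proteolytic sites inside, and the regulatory particle binds, unfolds and feeds in the substrates. In cells exposed to interferon, the immunoproteasome subunits replace their constitutive partners during assembly (Psmb8 in place of Psmb5, Psmb9 in place of Psmb6, Psmb10 in place of Psmb7) and favor the production of peptides for MHC class I molecules. In thermogenic fat, the transcription factor Nfe2l1 is known to raise proteasome genes in the cold.

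The catalytic subunits carry the comparison of constitutive with immunoproteasome genes, so their promoters are shown first. Each runs from 250 bases before to 50 bases after the RefSeq start site on GRCm38.p6. No RefSeq promoter was matched for Psmb7, the constitutive partner of Psmb10, so none is shown for it. Psmb5 lies at chr14:54617946-54618245 on the minus strand and Psmb6 at chr11:70525107-70525406 on the plus strand. Psmb8 lies at chr17:34197945-34198244 on the plus strand, Psmb9 at chr17:34187281-34187580 on the minus strand, and Psmb10 at chr8:105938343-105938642 on the minus strand. Capitals mark matches, on either strand, to the core of the antioxidant response element that Nfe2l1 and Nfe2l2 recognize (TGACNNNGC), the NF-Y box (CCAAT), the interferon-stimulated response element (GAAA, any 2 bases, then GAAA) or the gamma-activated sequence (TTCNNNGAA).
Psmb5: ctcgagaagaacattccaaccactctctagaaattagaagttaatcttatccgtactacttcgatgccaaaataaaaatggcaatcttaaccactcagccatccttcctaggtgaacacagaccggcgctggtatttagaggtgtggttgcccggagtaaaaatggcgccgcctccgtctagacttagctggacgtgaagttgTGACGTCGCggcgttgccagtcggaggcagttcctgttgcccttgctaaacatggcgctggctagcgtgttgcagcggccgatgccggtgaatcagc
Psmb6: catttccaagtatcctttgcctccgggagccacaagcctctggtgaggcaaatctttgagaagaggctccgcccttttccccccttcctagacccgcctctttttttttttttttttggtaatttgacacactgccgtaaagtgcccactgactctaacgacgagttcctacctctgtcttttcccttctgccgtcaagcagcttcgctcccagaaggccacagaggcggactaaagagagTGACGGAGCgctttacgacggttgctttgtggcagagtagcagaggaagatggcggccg
Psmb8: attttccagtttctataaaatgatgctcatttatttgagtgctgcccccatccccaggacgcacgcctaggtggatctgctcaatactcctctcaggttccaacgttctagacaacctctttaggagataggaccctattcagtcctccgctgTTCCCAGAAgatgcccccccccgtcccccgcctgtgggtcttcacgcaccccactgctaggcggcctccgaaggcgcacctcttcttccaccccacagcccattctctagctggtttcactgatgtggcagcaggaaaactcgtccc
Psmb9: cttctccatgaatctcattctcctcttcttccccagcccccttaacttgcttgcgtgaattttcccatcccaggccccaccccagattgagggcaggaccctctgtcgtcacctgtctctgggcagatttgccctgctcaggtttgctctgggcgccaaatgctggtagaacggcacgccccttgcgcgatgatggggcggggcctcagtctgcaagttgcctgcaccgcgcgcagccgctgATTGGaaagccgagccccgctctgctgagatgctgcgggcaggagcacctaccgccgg
Psmb10: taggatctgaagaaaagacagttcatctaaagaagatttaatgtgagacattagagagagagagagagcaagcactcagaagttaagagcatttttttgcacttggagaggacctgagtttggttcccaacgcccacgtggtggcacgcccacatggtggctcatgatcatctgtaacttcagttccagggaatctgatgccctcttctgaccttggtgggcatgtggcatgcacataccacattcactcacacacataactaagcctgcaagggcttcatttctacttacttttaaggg

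Psmb5 had the antioxidant response core TGACGTCGC 47 bases before the start site, and Psmb6 had TGACGGAGC 9 bases before it. Psmb8 had the gamma-activated sequence TTCCCAGAA 97 bases before the start site, Psmb9 had an NF-Y box on the other strand 8 bases before it, and the window of Psmb10 had no match to these letters. RefSeq promoters were matched for 32 of the 39 members, and no base of theirs fell in more than 1 motif. The antioxidant response core was found in 5 of the 32 (15.6%: Psmb5, Psmb6, Psmc6, Psmd9 and Psmd12), in 17.1% of the 10491 tested genes with a promoter and in 14.0% of all 27025 genes with promoters of this length. The NF-Y box was in 13 members (40.6%) and in 41.1% of those 27025 genes, and the gamma-activated sequence was in 2 (6.25%: Psmb8 and Psmd2) and in 9.55%. The interferon-stimulated element was in Psmb3, Psmd4 and Psmd9 (9.38%) and in 3.99% of them, and in none of the 3 immunoproteasome windows. The windows of Psmb8 and Psmb9 lay wholly inside these genes as GENCODE annotates them, so the bases before the annotated genes were not searched. A match describes letters and not binding.

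The samples had between 17570335 and 18373707 reads on the listed genes, and 1 read was worth 0.960 to 1.08 normalized counts. Nrg4 had 3128, 3102 and 3092 normalized counts in control and 2577, 2627 and 2691 in AKO, and the 2 groups did not overlap. These counts per gene were not split by exon here, so they do not check the deletion itself. With limma on log2(normalized count + 1), 2 of 13855 tested genes (0.0144%) passed an adjusted p of 0.05, and 1261 (9.10%) had an unadjusted p under 0.05. For genes with few counts, this scale gives fold changes that are too small. Summed over 8 thermogenic markers, the level was 27667 to 39811 normalized counts in control and 11394 to 14872 in AKO, and the groups did not overlap in 7 of the 8. With DESeq2, 6 of the 8 passed the adjusted threshold, and with limma 1 did. Ucp1, the uncoupling protein of thermogenic adipocytes, had 18058, 25393 and 16827 in control and 5401, 4836 and 7801 in AKO (log2 fold change -1.75, adjusted p = 0.0703 by limma and 1.97e-06 by DESeq2). Skeletal muscle markers also differed between libraries, with a sum over 15 genes of 397 to 30058 in control and 22317 to 129792 in AKO. Control 1 had the lowest sum, with 62.2 counts of the muscle actin gene Acta1 against 3498 to 27039 in the other 5 samples.

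No proteasome gene passed the test between AKO and control iWAT. Of the 38 members whose mean reached 10 normalized counts, 0 passed the adjusted threshold with limma, DESeq2 or edgeR, against 0.0144%, 0.901% and 0.0216% of all genes tested. An unadjusted p under 0.05 was found for 0 of 38 members with limma (9.10% of all genes), for 0 of all 39 with DESeq2 (6.25%) and for 1 of 38, Psma5, with edgeR (9.24%). The log2 fold changes, AKO minus control, ran from -0.29 for Psmc3ip to 0.22 for Psma5, with 18 below 0 and 20 above. The median was 0.003 over the members and 0.007 over all genes tested. The groups did not overlap in 1 member, Psma5, against 14.5% of all genes. Psma8 was at 6.02, 2.15 and 1.02 normalized counts in control and 5.76, 0.976 and 2.89 in AKO and was not tested.

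The changes compatible with these samples were bounded gene by gene. For 29 of the 38 members (76.3%), the 95% interval of the fold change lay within 1.25-fold in either direction, against 39.0% of all genes. It lay within 1.5-fold for 37 members (97.4%), all but Psmc3ip, against 72.1% of all genes. Across those 37, the lowest lower bound was a fold of 0.793 (Psmb5) and the highest upper bound was 1.36 (Psma5). The residual SD on the log2 scale had a median of 0.0907 over the members and 0.141 over all genes. The members were also read more deeply, with a median of 1293 normalized counts against 336 over all genes. In bulk tissue, a change in the number of cells of a type and a change in RNA per cell cannot be told apart.

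**Figure D1:**
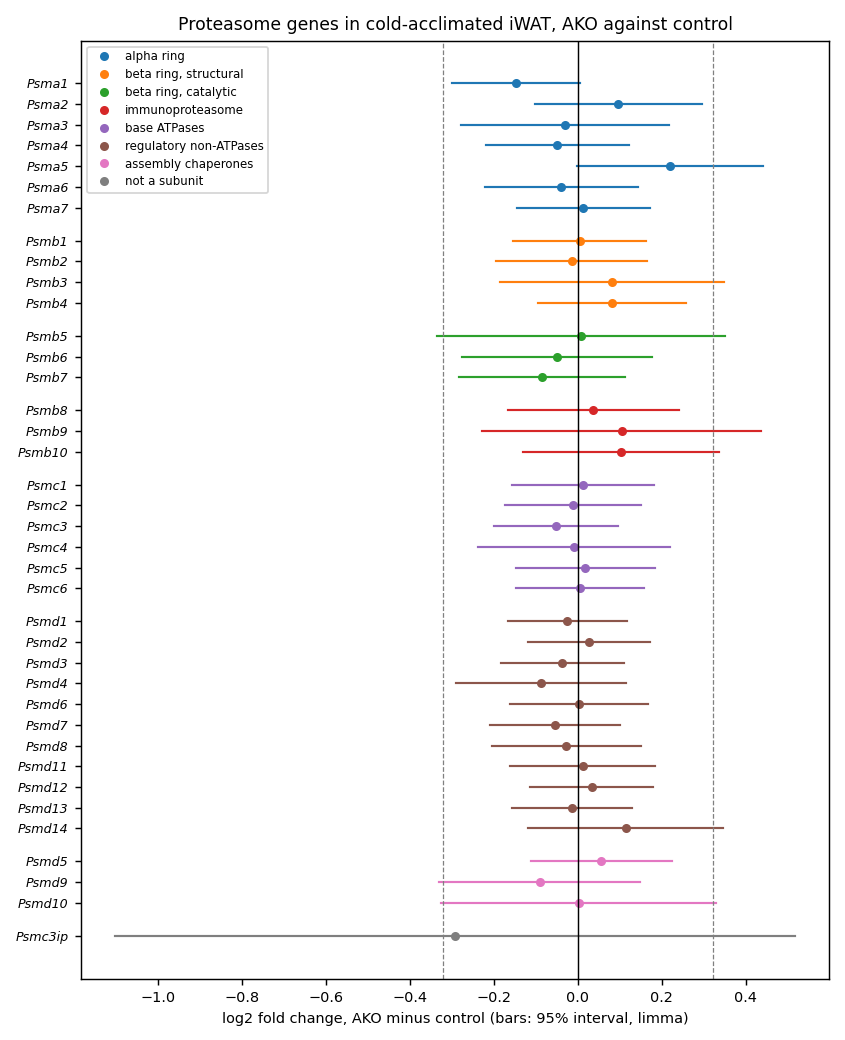
Log2 fold change of the 38 tested proteasome genes (AKO minus control, x axis), grouped by role, with points at the limma estimate and bars for the 95% interval. Solid and dashed vertical lines mark no change and 1.25-fold, and all 38 bars cross the line of no change.

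The alpha rings form the gate through which substrates enter the core. Over the 7 alpha genes the log2 fold changes had a median of -0.03, with 4 below 0 and 3 above, and none passed. Psma5 had 207, 187 and 188 normalized counts in control and 229.5, 236 and 212 in AKO. All AKO samples were above all control samples, with means of 194 ± 11.1 and 226 ± 12.5 (SD, n = 3). The log2 fold change was 0.22 (95% interval -0.002 to 0.44, unadjusted p = 0.0514 and adjusted p = 0.550 by limma; exact permutation p = 0.1, the smallest that 3 samples against 3 can give). Of the 50-base windows of its transcript, 54.5% also occur in transcripts of other annotated genes, so its count is uncertain. Psma1 lay in the other direction, with 2104, 2271 and 2305 in control and 2120.4, 1971 and 1939 in AKO. The groups overlapped through control 1 and AKO 1, and the log2 fold change was -0.15 (interval -0.30 to 0.004, unadjusted p = 0.0555 and adjusted p = 0.558 by limma; exact permutation p = 0.2). Psma2 had 773, 897 and 912 in control and 858, 959 and 940.0 in AKO (log2 fold change 0.10, adjusted p = 0.796 by limma), with control 1 lowest. The other 4 alpha genes had log2 fold changes between -0.05 and 0.01.

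The structural beta subunits complete the inner rings without cutting substrates. Psmb4 had 1297, 1388 and 1417 normalized counts in control and 1364, 1399 and 1583 in AKO (log2 fold change 0.08, interval -0.10 to 0.26, adjusted p = 0.814 by limma). Psmb3 had 276, 372 and 324 in control and 331, 337 and 353 in AKO (log2 fold change 0.08, interval -0.19 to 0.35, adjusted p = 0.890 by limma). The AKO samples of Psmb3 lay within the range of the control samples. Psmb1 and Psmb2 had log2 fold changes of 0.005 and -0.01, and the median over the 4 genes was 0.04.

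The catalytic constitutive subunits give the core its chymotrypsin-like (Psmb5), caspase-like (Psmb6) and trypsin-like (Psmb7) activities. Psmb5 had 256, 386 and 324 normalized counts in control and 294, 332 and 334 in AKO. The AKO samples fell inside the control range, and the log2 fold change was 0.01 (interval -0.33 to 0.35, adjusted p = 0.995 by limma). Of its 50-base windows, 57.1% occur in other annotated genes, including a pseudogene, and the count is uncertain to that extent. Psmb6 had 1268, 1545 and 1367 in control and 1207, 1374 and 1458 in AKO, with overlapping groups (log2 fold change -0.05, interval -0.28 to 0.18, adjusted p = 0.925 by limma). Psmb7 had 1547, 1845 and 1712 in control and 1472, 1685 and 1649.6 in AKO (log2 fold change -0.09, interval -0.28 to 0.11, adjusted p = 0.827 by limma). In Psmb6 and Psmb7, AKO 1 was the lowest sample and control 2 the highest.

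The immunoproteasome subunits were all slightly higher on average in AKO, and in none was the difference larger than the spread between samples. Psmb8, the counterpart of Psmb5, had 864, 838 and 921 normalized counts in control and 982, 802 and 915 in AKO. Its log2 fold change was 0.04 (interval -0.17 to 0.24, adjusted p = 0.940 by limma). Psmb9, the counterpart of Psmb6, had 546, 482 and 444 in control and 614, 425 and 557 in AKO (log2 fold change 0.10, interval -0.23 to 0.44, adjusted p = 0.886 by limma). Psmb10, the counterpart of Psmb7, had 719.5, 733 and 772 in control and 855, 681 and 865 in AKO (log2 fold change 0.10, interval -0.13 to 0.34, adjusted p = 0.825 by limma). AKO 2 was the lowest of the 6 samples in all 3 genes, and the highest was AKO 1 for Psmb8 and Psmb9 and AKO 3 for Psmb10. With AKO 2 left out, the log2 fold change of Psmb10 was 0.21, with an unadjusted p under 0.05 and no adjusted call by limma, and with AKO 1 left out, those of Psmb8 and Psmb9 turned to -0.03 and -0.007. The median log2 fold change was 0.10 for these 3 genes and -0.05 for their 3 constitutive partners. Psmb9 shares 5.79% of its exonic bases with Tap1 and Psmb8 shares 14.7% with Gm20496, and the sources used here do not state whether counting used strand.

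**Figure D2:**
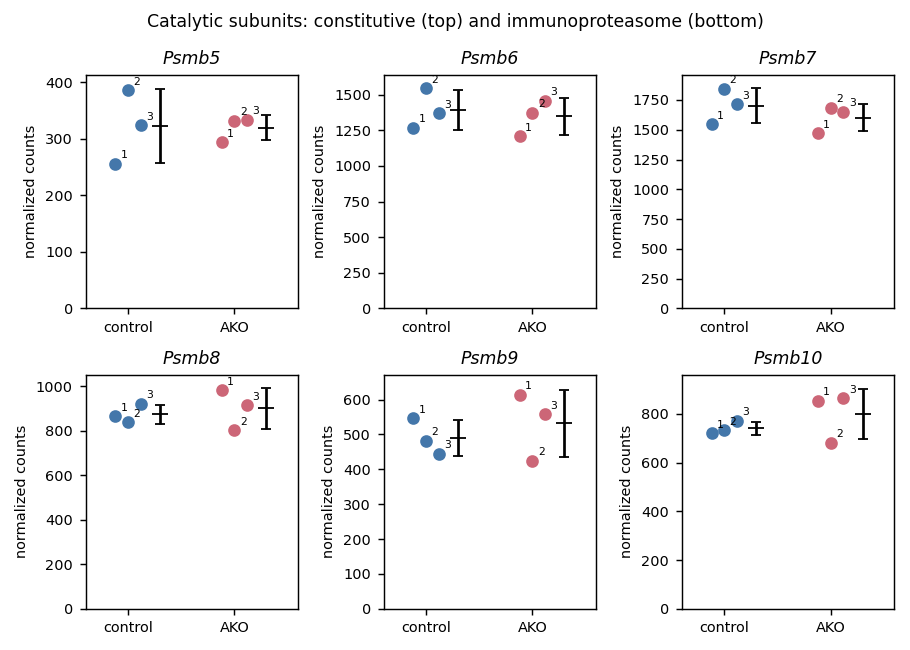
Normalized counts (y axes, from 0) of the 3 constitutive catalytic subunits in the top panels and their immunoproteasome counterparts below, with a numbered point per sample and bars for the mean ± SD (n = 3). The groups overlap in all 6 panels, and AKO 2 is the lowest sample of each immunoproteasome gene.

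Each immunoproteasome gene was next set against the subunit it replaces, as a ratio within a sample, in which scaling factors cancel. The Psmb8 to Psmb5 ratio of normalized counts was 3.38, 2.17 and 2.84 in control and 3.34, 2.41 and 2.74 in AKO. Its log2 value differed by 0.03 between groups (95% interval -0.61 to 0.67). The Psmb9 to Psmb6 ratio was 0.430, 0.312 and 0.325 in control and 0.508, 0.309 and 0.382 in AKO, a log2 difference of 0.15 (interval -0.55 to 0.86). The Psmb10 to Psmb7 ratio was 0.465, 0.397 and 0.451 in control and 0.581, 0.404 and 0.524 in AKO, a log2 difference of 0.19 (interval -0.28 to 0.66). In each pair AKO 2 had the lowest ratio of its group, and the groups overlapped. Exact permutation tests (2-sided) gave p = 1.0, 0.7 and 0.3 for the 3 pairs, or 1.0, 1.0 and 0.9 after adjustment over them. The upper bounds correspond to ratios 1.59, 1.81 and 1.58 times those of control, and shifts up to that size lay within the intervals.

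On the scale of normalized counts per kb of principal transcript, Psmb8 made up 60.2% ± 5.34 of the sum with Psmb5 in control and 60.7% ± 3.89 in AKO (SD, n = 3). Psmb9 made up 17.3% ± 2.58 of the sum with Psmb6 in control and 19.0% ± 3.85 in AKO, and Psmb10 made up 27.9% ± 1.66 of the sum with Psmb7 in control and 30.7% ± 3.90 in AKO. Of the 50-base windows, 57.1% of those of Psmb5 and 0% of those of Psmb8 occur in other annotated genes. The ratio and the share of this pair are therefore uncertain in size, while both groups were compared on the same counts. These shares of mRNA also depend on the length used. With the union of all annotated exons, the control means were 42.3%, 15.3% and 46.7% and the AKO means 42.8%, 16.9% and 49.96%.

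The ATPases of the base unfold substrates and open the gate of the core. Their 6 genes had log2 fold changes between -0.05 and 0.02, with a median of -0.002, and the 95% intervals of all 6 lay within 1.25-fold. Psmc3 had 1495, 1575 and 1475 normalized counts in control and 1397, 1452 and 1539.7 in AKO (log2 fold change -0.05, interval -0.20 to 0.10, adjusted p = 0.871 by limma). The 2 groups overlapped, and this was the ATPase with the smallest p.

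The other regulatory subunits receive ubiquitin chains, remove them or hold the particle together. Over these 11 genes the median log2 fold change was -0.01, with 6 below 0 and 5 above. Psmd14, the deubiquitinase of the lid, had 833, 895 and 1046 normalized counts in control and 927, 1083 and 984 in AKO (log2 fold change 0.11, interval -0.12 to 0.35, adjusted p = 0.793 by limma). Psmd4, a ubiquitin receptor, had 2001, 2467 and 2064 in control and 2027, 1971 and 2126 in AKO (log2 fold change -0.09, interval -0.29 to 0.12, adjusted p = 0.827 by limma). Control 2 stood highest for Psmd4 and the other 5 samples lay between 1971 and 2126. Psmd7, a structural partner of Psmd14, had 1414, 1612 and 1559 in control and 1471, 1481 and 1458 in AKO (log2 fold change -0.05, adjusted p = 0.870 by limma), with all AKO samples inside the control range. The remaining 8 genes had log2 fold changes between -0.04 and 0.03.

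The assembly chaperones bind base subunits before the particle is complete and are absent from the mature proteasome. Psmd9 had 322, 394 and 339 normalized counts in control and 349.6, 303 and 336 in AKO (log2 fold change -0.09, interval -0.33 to 0.15, adjusted p = 0.848 by limma). Psmd5 had 598, 679.6 and 657 in control and 655, 667 and 687 in AKO (log2 fold change 0.06, interval -0.11 to 0.23, adjusted p = 0.877 by limma). Both genes overlapped between groups, and Psmd10 had a log2 fold change of 0.002. Psmc3ip, the meiotic gene, had 12.04, 24.7 and 21.3 in control and 13.4, 13.7 and 18.3 in AKO, with the widest interval of the members (log2 fold change -0.29, interval -1.10 to 0.52, adjusted p = 0.861 by limma).

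Samples of 1 group lay further apart than the 2 group medians. Relative to its own mean over the 6 samples, the median constitutive subunit stood at -0.10, 0.08 and 0.02 on the log2 scale in control 1, 2 and 3 and at -0.04, 0.03 and 0.01 in AKO 1, 2 and 3. Control 1 was the lowest sample for 20 of the 31 constitutive subunits and for 20.5% of all genes. It lay below both other controls in 27 of the 31 (87.1%), against 37.8% of all genes, and by a median of 0.17 on the log2 scale. Control 2 was the highest sample for 16 of the 31. The summed level of the 31 genes was 40854, 45682 and 43949 normalized counts in control and 41746, 43903 and 43278 in AKO, so the 3 AKO samples lay within the control range. Control 1 was also the sample with the lowest muscle marker sum. These sums were 397, 30058 and 16682 in control 1, 2 and 3 and 22317, 85377 and 129792 in AKO 1, 2 and 3. Their order was thus not that of the constitutive subunits over the 6 samples. The part of muscle in the result was not tested. Without control 1, 0 members passed the adjusted threshold, and 2 (Psma1, lower, and Psma5, higher) had an unadjusted p under 0.05 against 9.95% of all genes.

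The immunoproteasome genes followed another order of samples. Their median deviation on the log2 scale was -0.03, -0.07 and 0.007 in control 1, 2 and 3 and 0.15, -0.17 and 0.14 in AKO 1, 2 and 3. The 13 class I antigen processing genes stood at -0.02, -0.06 and 0.01 in control and at 0.15, -0.14 and 0.02 in AKO, so that AKO 1 was highest and AKO 2 lowest in both lists. Tap1, which carries peptides into the endoplasmic reticulum and neighbors Psmb9, had 1210.2, 1079 and 1008 in control and 1363, 1079.8 and 1057 in AKO. Leukocyte marker lists differed in their order of samples. The sum of 8 pan-leukocyte genes was 4619 to 6403 in control and 6038 to 8401 in AKO, with the highest value in AKO 2, where Ptprc, the common leukocyte antigen, had 893 normalized counts against 342 to 761 in the other samples. T and NK cell markers summed to 249 to 589 in control and 222 to 979 in AKO, again highest in AKO 2. The sum of 8 macrophage markers was 10595, 12010 and 14990 in control and 17696, 13033 and 17930 in AKO. AKO 3 and AKO 1 were the highest samples and control 1 and control 2 the lowest, with AKO 2 between control 2 and control 3. All 8 macrophage markers had log2 fold changes above 0 (median 0.37), and so had all 8 pan-leukocyte genes (median 0.31). An unadjusted p under 0.05 was found with limma for 4 and 3 of them, against 4.41% of all genes in this direction. In both lists 0 passed the adjusted threshold with limma or DESeq2. B and plasma cell markers (8 genes) summed to 7252 to 10974 in control and 9972 to 12908 in AKO. This sum was mostly Cd74 and was highest in AKO 1. The median log2 deviation of the 8 genes had another order, highest in AKO 2 (2.25) and next in control 1, with AKO 1 at -0.81. The ranges of the sums in control and AKO were 23359 to 25516 and 21192 to 24228 for 8 endothelial markers. They were 28.0 to 1451 and 191 to 1958 for 8 mammary epithelial markers, and 456130 to 495765 and 395445 to 461916 for 8 adipocyte markers, which were all detected in every sample. The part of these cell types in the immunoproteasome values was not tested.

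**Figure D3:**
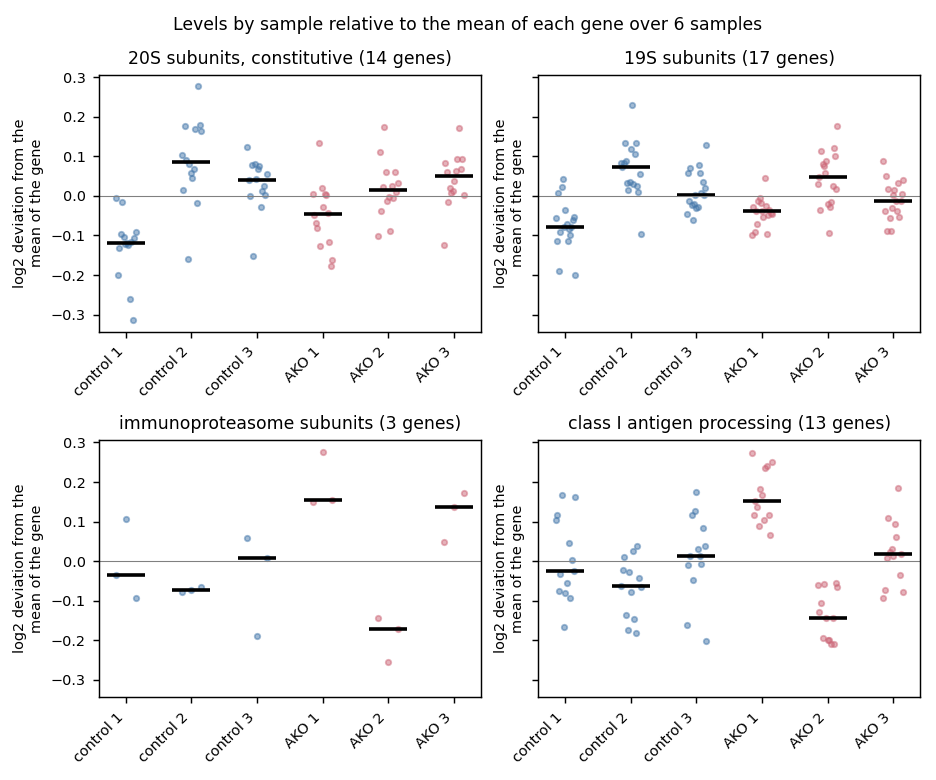
Log2 deviation of each gene from its mean over the 6 samples (y axis) in control and AKO samples (x axis) for the constitutive core and regulatory subunits, the 3 immunoproteasome subunits and 13 class I antigen processing genes, with a point per gene and a bar at the median. Control 1 lies lowest in the constitutive panels (medians of -0.12 and -0.08), and AKO 2 lies lowest in the other panels (-0.17 and -0.14).

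Genes that work with the proteasome were described from 7 lists. Of their 67 genes, 65 were tested, 0 passed the adjusted threshold with limma or DESeq2, and 3 had an unadjusted p under 0.05 with limma (1 lower and 2 higher, against 4.69% and 4.41% of all genes). Among the 3 other regulatory particle genes, log2 fold changes ran from -0.20 for Adrm1, a ubiquitin receptor, to -0.01 for Usp14, a deubiquitinase. Among the 5 activator and inhibitor genes they ran from -0.15 for Psme2, a subunit of the interferon-inducible activator, to 0.10 for Psme4, a nuclear activator. Psme2 had 501, 593 and 505 normalized counts in control and 479, 473 and 488 in AKO, and its groups did not overlap (adjusted p = 0.661 by limma). Among the 5 core assembly chaperones the ends were Psmg1 at -0.15 and Psmg2 at 0.20.

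Nfe2l1, the transcription factor that raises proteasome genes when activity falls short, had 10222, 10024 and 9648 normalized counts in control and 9965, 9432 and 9277 in AKO. The groups overlapped, and the log2 fold change was -0.06 (interval -0.21 to 0.08, adjusted p = 0.832 by limma). Of the 12 genes of its pathway, Maff, a small Maf protein, had the largest log2 fold change, with 79.3, 77.4 and 93.5 in control and 98.0, 113 and 106 in AKO (0.34, unadjusted p = 0.0371 and adjusted p = 0.525 by limma; exact permutation p = 0.1), and its groups did not overlap. Syvn1, an endoplasmic reticulum ubiquitin ligase, was at the other end with -0.07. mRNA does not report the cleavage that activates the Nfe2l1 protein.

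Of 13 ubiquitin and unfoldase genes, 9 had log2 fold changes below 0 and 4 above, with a median of -0.04, and the highest was 0.11 for Uba6, a ubiquitin-activating enzyme. The 13 class I genes ran from -0.08 for Calr, a chaperone, to 0.19 for H2-T23, a class I heavy chain, with a median of 0.03. Of 14 interferon regulators, Irf8 was highest at 0.36 (interval -0.10 to 0.82) and Irf2 lowest. Irf2 had 2174, 1912 and 1993 in control and 1673, 1590.4 and 1814 in AKO, without overlap (log2 fold change -0.26, unadjusted p = 0.00934 and adjusted p = 0.414 by limma; exact permutation p = 0.1). The third gene with an unadjusted p under 0.05 was Ifngr2, a chain of the interferon gamma receptor, which was named after its values were seen (log2 fold change 0.15, unadjusted p = 0.0357 and adjusted p = 0.522 by limma; exact permutation p = 0.1).

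Levels between genes were compared per kb of principal transcript. The 14 constitutive core genes ran from 79.1 (Psma3) to 1835 (Psma6) normalized counts per kb, with a median of 1139, and the 17 constitutive regulatory genes from 308 (Psmd11) to 1584 (Psmd4), with a median of 938. Psma1 (1764), Psmb6 (1717) and Psmb2 (1628) followed Psma6. The immunoproteasome genes lay at 588 (Psmb10), 545 (Psmb8) and 378 (Psmb9), above Psmb5 at 357 and below Psmb6 and Psmb7 at 1717 and 1424. The assembly chaperones lay at 157 (Psmd10), 149 (Psmd5) and 131 (Psmd9), and Psmc3ip at 13.4 and Psma8 at 1.85 closed the order. The order depended on the length used. With the union of exons as the length, Psmb8 at 262 and Psmb9 at 139.7 normalized counts per kb fell below Psmb5 at 357. Psma6 (1549), Psmb2 (1162) and Psmc5 (1126) then led, while Psma1 came to 718 and Psmb6 to 732.

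**Figure D4:**
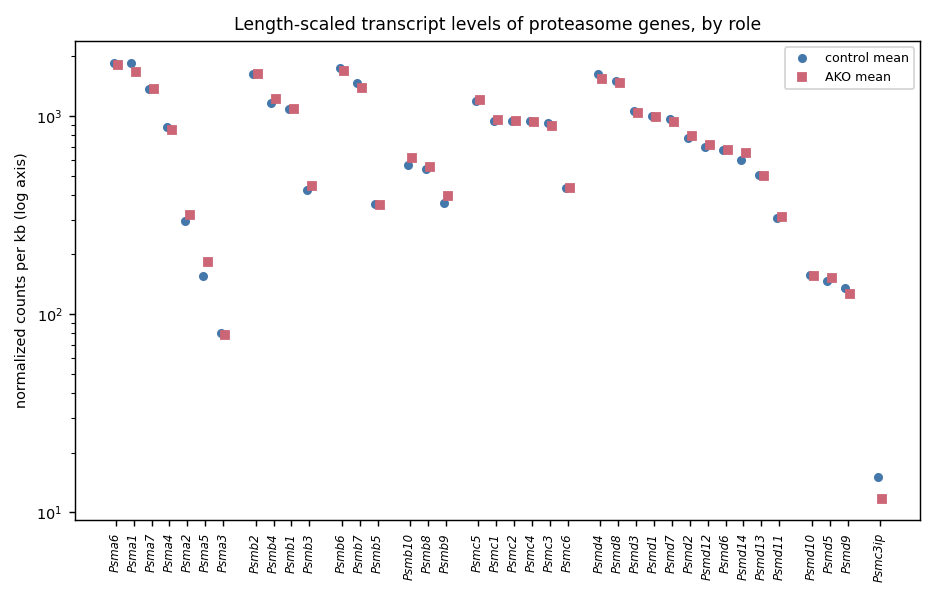
Mean normalized counts per kb of principal transcript (log y axis) of the 38 tested proteasome genes (x axis), grouped by role and ordered by level, with circles for control and squares for AKO (n = 3 each). The symbols of a gene nearly coincide, while the genes span from 13.4 (Psmc3ip) to 1835 (Psma6) over all samples.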

How the data were processed

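The genotype in the labels gave the groups (3 control and 3 AKO). The authors used STAR for alignment to GRCm38.p6, featureCounts for counts per gene and DESeq2 for the comparison of genotypes. What the authors deposited is a signal for each gene in each sample: the read count over a DESeq2 size factor, with no division by length. How multi-mapping reads and strand were treated is not given in the sources used here. The authors' own log2 fold changes and p-values stand in the same deposited table and were not used.

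Genes with a mean of at least 10 were tested on log2(value + 1) with limma (version 3.58.1, R 4.3.3) with a variance trend and Benjamini-Hochberg adjustment over all genes tested, at a threshold of 0.05. All values (100%, within 0.001 of a whole number) were whole multiples of the value of 1 read, and the recovered reads were tested with edgeR (4.0.16), DESeq2 (1.42.0) and limma-voom. Counting error is largest for low genes. Between replicates, the chi-square of the reads over its degrees of freedom was 9.86 to 20.1, above sampling noise, so each sample counted once. Ratios of 3 subunit pairs were compared with exact permutation tests, with intervals from the pooled variance. Gene models and lengths came from GENCODE, transcript sequences were compared in windows of 50 bases, and promoters came from RefSeq (GRCm38.p6).

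The rule for the members uses gene names alone, but the members, lists and tests were chosen with earlier results of these data known. Values per sample are given for Psmb5 to Psmb10, for the 12 other members with the smallest p, and for genes a result turned on. For each related list the largest rise and fall are named, except 1 gene that is not reported here, and Nfe2l1 is always named. Nrg4, Tap1, Psme2, Ifngr2 and marker sums were added for context. On simulated data made from these genes, limma found 150 of 200 changed genes among 13843, with 8 false calls (23 of 50 at 1.5-fold and 36 of 50 at 2-fold). Each simulated gene was drawn separately, with a spread set by its level alone and no effect shared within a library. Detection in the real samples may therefore be lower. The alternatives were other pseudocounts (0.1 and 10), filters, TMM factors, count tests, a block for the replicate number, and fits without each sample in turn.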

Additional observations from a re-analysis of the deposited data

How the results depend on the processing

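No proteasome gene passed the adjusted threshold under any of the 16 alternatives. The number of genes called over the whole table was 2, and it was 149 with DESeq2, 6 when at least 10 was required in every sample, 5 with edgeR and RLE factors, and 0 to 3 with a sample left out. The number of members with an unadjusted p under 0.05 was 0, and it was 1 (Psma5) with TMM factors, with edgeR under TMM or RLE factors, with limma-voom and with a pseudocount of 0.1. With a sample left out it was 0 to 2: Psma1 without AKO 1, Psmb10 without AKO 2, Psma5 without AKO 3, and Psma1 and Psma5 without control 1. The median log2 fold change of the members was -0.05 to 0.03 with a sample left out.

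The log2 ratio differences with a sample left out were -0.14 to 0.18 for Psmb8 to Psmb5, -0.034 to 0.32 for Psmb9 to Psmb6 and 0.08 to 0.34 for Psmb10 to Psmb7. The direction of the first turned without control 2 (-0.14) and without AKO 1 (-0.10), and that of the second turned without AKO 1 (-0.034). Of the 33 genes that the naming rule picked, 24 kept their direction under all alternatives. Psmb5 turned to -0.0093 with DESeq2, -0.0071 with edgeR and RLE factors and -0.0044 with limma-voom, and Usp14 to 0.00057 with limma-voom. With a sample left out, the log2 fold changes ranged from -0.15 to 0.15 for Psmb5, -0.12 to 0.027 for Psmb6, -0.029 to 0.12 for Psmb8, -0.0070 to 0.26 for Psmb9, -0.15 to 0.0059 for Psmd4, -0.030 to 0.18 for Psmb3, -0.064 to 0.031 for Usp14, -0.066 to 0.35 for Uba6 and -0.16 to 0.00013 for Calr. The cause was not tested.

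Samples with the same replicate number did not deviate together (correlations of 0.135, -0.351 and 0.240), and not every sample correlated best with its own number, so the numbers were not taken as pairs. With the replicate number as a block, 2 genes were called, 0 members passed or had an unadjusted p under 0.05, the median of the members stayed at 0.003, and the pair tests gave p = 1.0, 0.5 and 0.25 by exact permutation. The last is the smallest p that 3 blocks allow, and the Psmb10 to Psmb7 ratio was higher in AKO for all 3 numbers, so these tests could not pass the threshold.

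With 3 pools a group, an exact permutation test cannot go below p = 0.1, and changes inside the intervals given are not excluded by these data. mRNA of subunits does not measure assembled proteasomes or their activity.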

Other observations

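Among the 14 constitutive core genes, the level per kb of principal transcript tended to be lower where more of the transcript occurs in other annotated genes. The 3 genes with over 50% of their 50-base windows shared lay at 169 (Psma5), 357 (Psmb5) and 434 (Psmb3) normalized counts per kb, and the 6 genes with 0 shared windows lay between 1190.1 and 1835. The 5 genes in between ran from 79.1 (Psma3, 22.0% shared) to 1717 (Psmb6, 2.67% shared), with Psma4 (25.6% shared) at 860.3. Psma2, with 3.53% shared, went the other way and lay below Psmb5 and Psmb3. Spearman's rho was -0.79 across these 14 genes and -0.62 across all 31 constitutive subunits. Per kb of the union of exons the gap was narrower, with 144 to 357 for the 3 genes and 407 to 1549 for the 6, and rho was -0.74 and -0.52. The genes share the 6 libraries and a division by transcript length, and are not independent replicates. The groups of genes were set after the values were seen, and no test was made. Levels per kb of Psma3, Psma5, Psmb3 and Psmb5 and their place in the order are therefore uncertain, while each was compared between control and AKO on the same count.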
